A study of Mus musculus with 2 samples.

Results

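Checkpoint ligands are surface or secreted proteins through which antigen-presenting, stromal and tumor cells raise or lower the activity of T and NK cells. Of the 32285 genes in the files, 10 such genes were followed across the cells of a mouse ovarian tumor: Cd274, Pdcd1lg2, Cd80, Cd86, Lgals9, Pvr, Nectin2, Vsir, Icosl and Cd40. They were named for this role, and the rule uses none of their values, though earlier results of these data were known when the list was made. PD-L1 (Cd274) and PD-L2 (Pdcd1lg2) engage PD-1 on T cells and dampen them. CD80 and CD86 are the ligands of CD28, which activates T cells, and of CTLA-4, which restrains them. In tumors these ligands are known mainly from macrophages, dendritic cells and cancer cells.

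Tumors were grown in female C57BL/6 mice 6 to 8 weeks old that had an abraded peritoneum and received syngeneic p53-/-, myc, Hras ovarian cancer cells into the peritoneal cavity. From the day after, daily intraperitoneal injections held either control IgG (7 mice) or an Activin A neutralizing antibody (8 mice), for 10 days per the labels; the study's text gives other numbers of mice and days for its sequencing experiment, and which hold for these libraries was not settled. Both groups share the strain, the abrasion and the cancer cell line. Tumor tissue of each group was pooled, dissociated, freed of red and dead cells without selection of cell types, and sequenced as 1 droplet library (10x Genomics, counts of unique molecular identifiers, UMIs). With 1 library per group there is no replicate, no test between groups is possible, and antibody and library cannot be told apart.

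Sequencing gave 98174850 UMIs with control IgG and 74117462 with the antibody. Barcodes under 100 UMIs, with 6.39% and 6.23% of them, were read as free RNA. Levels in free RNA, given below, show its makeup and not how much of it a cell holds. They are no floor for the levels of cells. Cells with 1000 to 8500 genes, a total of 1000 to 100000 UMIs and no more than 10% mitochondrial UMIs numbered 8770 and 6386, with a median of 5719 and 4660 UMIs. The libraries shared 19 of these barcodes, and the values without them are given with the other alternatives. Cells were put in classes by marker genes that hold none of the ligands. Myeloid cells numbered 1635 with control IgG and 589 with the antibody (18.6% and 9.22% of cells), dendritic cells 286 and 205, B cells 226 and 134, stromal cells 224 and 249, and cancer-like cells 342 and 363. T and NK cells, 5471 and 4471, served for comparison, and 385 and 203 cells that passed several gates were left out of the classes. Every marker of the myeloid, dendritic, B, stromal and cancer-like lists had UMIs in its own class in both libraries. The gates used these markers, and T and NK cells also held UMIs of all 14 myeloid and all 10 stromal markers, so this is no check of the classes. With control IgG, cancer-like cells had a median of 56979 UMIs and stromal cells 16516. Dendritic, myeloid, T and NK, and B cells had 7942, 6978, 4751 and 2847. Levels are counts per 1e6 UMIs of the class (CPM), so their order over the classes can differ from an order per cell. Their 95% intervals, exact Poisson for levels, exact Clopper-Pearson for shares of cells and conditional binomial for ratios, take in the error of counting alone, and understate the error where few cells hold the UMIs.

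The genes for the PD-1 ligands are neighbours on mouse chromosome 19. Cd274 (ENSMUSG00000016496) lies at chr19:29367455-29388095 and Pdcd1lg2 (ENSMUSG00000016498) at chr19:29410919-29471161 in GRCm38, both on the plus strand, with 22823 bases between them. The study names CAGA boxes of the human PD-L1 promoter as SMAD binding elements. In its reporter assay, recombinant Activin A raised the activity of that promoter, and siRNAs against SMAD2 removed the rise. Because of these boxes, the 250 mouse bases before the RefSeq start of each gene (GRCm38.p6, plus strand) are shown. They lie at chr19:29367188-29367437 and chr19:29410669-29410918. These windows are of another species and shorter than the promoter of the reporter, so their matches do not bear on its result. Both stretches end before the first GENCODE transcript of their gene. Capitals mark CAGA on either strand, which reads TCTG where the minus strand holds it.
Cd274: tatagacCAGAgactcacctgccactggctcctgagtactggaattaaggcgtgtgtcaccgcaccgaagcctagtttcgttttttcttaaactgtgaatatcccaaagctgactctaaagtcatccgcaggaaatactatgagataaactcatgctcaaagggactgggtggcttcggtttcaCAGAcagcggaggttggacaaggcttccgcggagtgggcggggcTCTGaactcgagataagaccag
Pdcd1lg2: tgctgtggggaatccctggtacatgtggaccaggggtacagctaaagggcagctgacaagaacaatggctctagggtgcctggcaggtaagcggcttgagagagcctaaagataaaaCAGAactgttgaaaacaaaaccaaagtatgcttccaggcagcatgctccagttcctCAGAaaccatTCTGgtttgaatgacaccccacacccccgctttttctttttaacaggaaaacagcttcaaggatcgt
Each stretch held 3 matches of CAGA, 2 of them on the strand shown. In Cd274 they began 243, 66 and 22 bases before the start, and in Pdcd1lg2 133, 77 and 67 bases before it. So short a motif is common. At least 1 match was present in 93.3% of 32851 promoters of the same length, and 56.7% held at least 3. An interferon-type element, GAAA repeated after a gap of 2 letters and searched on both strands, was not found in these windows and was present in 2.98% of all promoters. Of the 10 genes, 7 had a promoter in the RefSeq table, and among them Lgals9 held a match of it, 55 bases before its start.

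As a share of the UMIs of a class, PD-L1 mRNA was highest in dendritic and myeloid cells and lowest in stromal and cancer-like cells. With control IgG, Cd274 was at 398 CPM in dendritic cells (373 to 423, 979 UMIs), 316 CPM in myeloid cells (306 to 326, 3862 UMIs), 216 CPM in B cells (188 to 247) and 71.0 CPM in T and NK cells (68.2 to 73.8). Stromal cells held 16.4 CPM (12.8 to 20.8) and cancer-like cells 10.0 CPM (8.67 to 11.6), with 24 of the 193 UMIs of the cancer-like class in 1 cell. No neighbours in this order had overlapping intervals. The antibody library gave the same order from dendritic (398 CPM) through myeloid (329 CPM), B (182 CPM) and T and NK cells (83.3 CPM), while cancer-like (11.7 CPM) and stromal cells (11.5 CPM) overlapped. Free RNA held 48.6 and 63.1 CPM of Cd274, above the stromal and cancer-like levels. When each cell was thinned to 2000 UMIs, a Cd274 UMI was seen in 39.3% of 1586 control IgG myeloid cells and 37.9% of 570 in the antibody library, against 1.47% of 341 and 2.22% of 360 cancer-like cells (unthinned 68.4%, 60.4%, 28.4% and 27.3%).

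**Figure D1:**
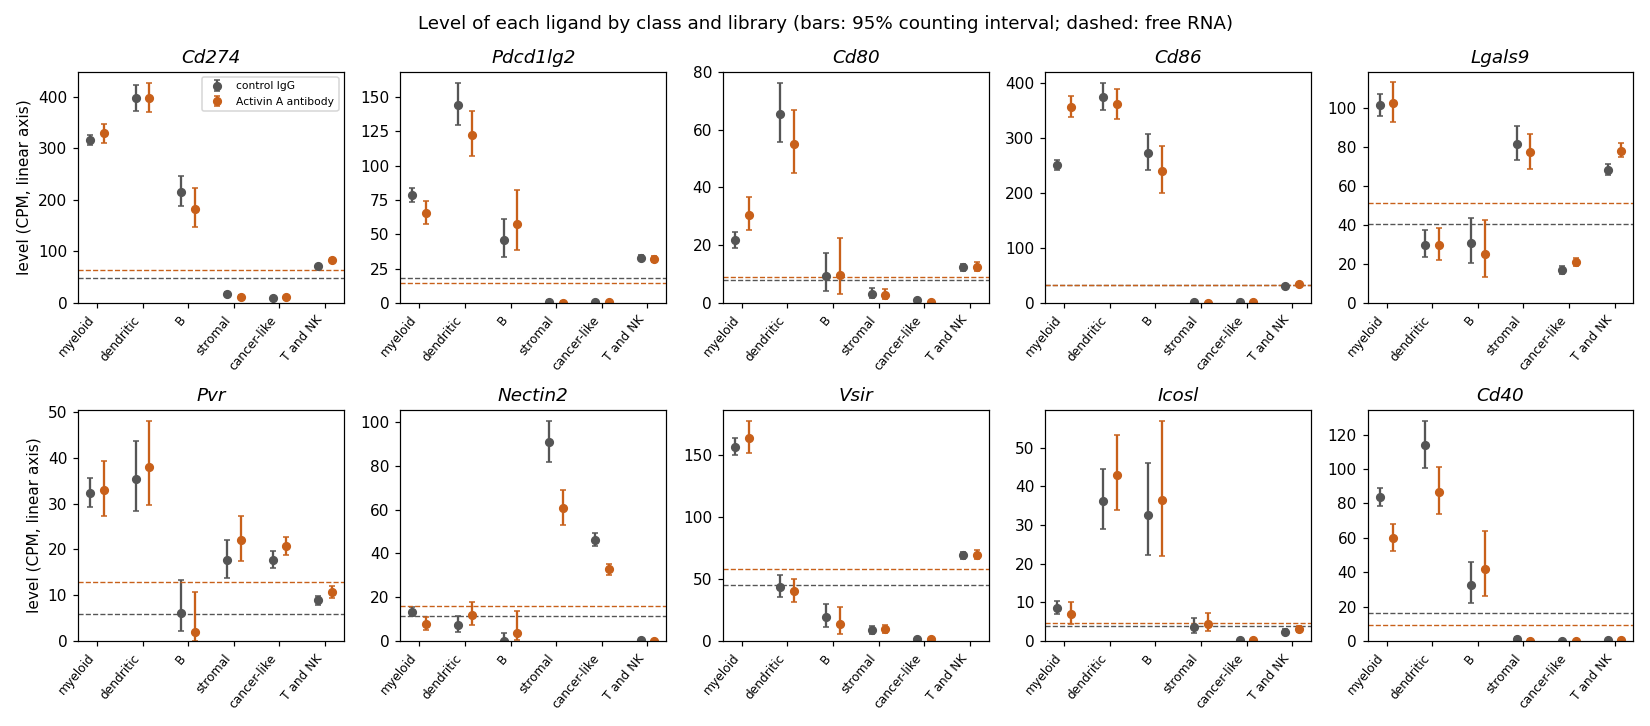
Level of each ligand in CPM (linear axes from 0) in 6 cell classes, control IgG in grey and Activin A antibody in orange; bars are 95% counting intervals and dashed lines the level in free RNA of that library. Cd274 stands between 316 and 398 CPM in myeloid and dendritic cells of both libraries, and Nectin2 is highest in stromal cells.

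Between the libraries, Cd274 was nearly level in the classes where it was abundant. The log2 ratio of antibody over control IgG was 0.06 in myeloid cells (-0.04 to 0.15), 0.00 in dendritic cells (-0.14 to 0.14) and -0.25 in B cells (-0.61 to 0.11). In myeloid cells its sign depended on how the cells were classed, with values from -0.09 to 0.18 over 11 alternatives. Cancer-like cells gave 0.22 (-0.06 to 0.51) and stromal cells -0.51 (-1.09 to 0.06). In T and NK cells it was 0.23 (0.14 to 0.32). A fold of 1.5 either way, with at least 20 UMIs over both libraries, was used to call a difference in size, and Cd274 was within it in each of these classes.

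PD-L2 followed the same order, with a steeper fall to stromal and cancer-like cells but not to T and NK cells. With control IgG, Pdcd1lg2 was at 145 CPM in dendritic cells (130 to 160), 78.4 CPM in myeloid cells (73.5 to 83.5), 45.8 CPM in B cells (33.4 to 61.3) and 33.0 CPM in T and NK cells (31.1 to 35.0), the intervals of the last pair overlapping. Stromal cells held 3 UMIs with control IgG and 0 with the antibody, which at a limit of 3 counts allows up to 0.786 CPM, and cancer-like cells held 10 and 17 UMIs (0.520 and 0.855 CPM), far below the free RNA at 18.2 and 14.3 CPM. With the antibody it was 123 CPM in dendritic cells (107 to 140) and 65.5 CPM in myeloid cells (57.6 to 74.2). The log2 ratio was -0.26 in myeloid cells (-0.47 to -0.06) and -0.24 in dendritic cells (-0.48 to 0.01). In myeloid cells it turned to 0.08 once the mix of sub-classes was held at that of control IgG.

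The CD28 and CTLA-4 ligands lay at chr16:38455561-38496335 (Cd80, plus strand) and chr16:36603869-36666081 (Cd86, minus strand). Cd86 was at 375 CPM in dendritic cells (351 to 400), 273 CPM in B cells (241 to 308) and 251 CPM in myeloid cells (242 to 260) with control IgG, and at 30.7 CPM in T and NK cells. Stromal and cancer-like cells held 1.19 and 1.14 CPM, and no cancer-like cell of 341 thinned to 2000 UMIs had a Cd86 UMI (Clopper-Pearson upper bound 1.08%). In the antibody library myeloid cells stood at 356 CPM (337 to 375), level with dendritic cells at 361 CPM (334 to 389) and above B cells at 240 CPM (199 to 285). The myeloid intervals of the libraries did not overlap, and the log2 ratio was 0.50 (0.41 to 0.60), within 1.5-fold. It was positive in all 11 alternatives, from 0.38 to 0.58. The share of thinned myeloid cells with a Cd86 UMI was 35.3% (33.0% to 37.7%) and 42.3% (38.2% to 46.5%). In dendritic cells the ratio was -0.05 (-0.20 to 0.09).

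Cd80 had its highest class level in dendritic cells. With control IgG it was at 65.4 CPM in dendritic cells (55.7 to 76.3), 21.7 CPM in myeloid cells (19.1 to 24.4), 12.3 CPM in T and NK cells and 9.16 CPM in B cells (4.19 to 17.4), beside 7.81 CPM in free RNA. With the antibody it was 55.2 CPM in dendritic cells (45.0 to 66.9) and 30.5 CPM in myeloid cells (25.2 to 36.6). Myeloid Cd80 thus moved in the direction of Cd86, with a log2 ratio of 0.49 (0.17 to 0.82), and dendritic Cd80 had -0.24 (-0.62 to 0.12). Cancer-like cells held 16 and 8 UMIs of Cd80, a ratio of -1.05 whose interval, -2.48 to 0.26, includes 0. Summed myeloid markers in these cancer-like cells were 66.9 CPM with control IgG and 25.6 CPM with the antibody, and their part in this ratio was not tested.

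Icosl encodes the ligand of the T cell costimulator ICOS (chr10:78069302-78083913, plus strand). Its level was highest in dendritic and B cells, at 36.1 CPM (29.0 to 44.5) and 32.6 CPM (22.3 to 46.0) with control IgG and 42.9 CPM (34.0 to 53.4) and 36.4 CPM (21.9 to 56.9) with the antibody. Of all Icosl UMIs in kept cells, myeloid cells held 26.9% with control IgG and 10.2% with the antibody. Dendritic cells held 22.6% and 31.4%, T and NK cells 21.3% and 28.2%, and B cells 8.12% and 7.45%. Myeloid cells held 8.66 CPM with control IgG (7.09 to 10.5), above the free RNA at 3.98 CPM (2.58 to 5.88). With the antibody they held 6.90 CPM (4.50 to 10.1), overlapping the free RNA at 4.55 CPM (2.82 to 6.96). The largest class ratio with enough UMIs was -0.33 in myeloid cells (-1.01 to 0.30), and none of its intervals left out 0.

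CD40 receives the CD40 ligand of helper T cells and licenses antigen-presenting cells. Its gene (chr2:165055627-165072948, plus strand) was at 114 CPM in dendritic cells (101 to 128), 83.8 CPM in myeloid cells (78.8 to 89.1) and 32.6 CPM in B cells (22.3 to 46.0) with control IgG. Stromal, cancer-like and T and NK cells were under 1 CPM, against 16.6 CPM in free RNA; a Cd40 UMI was seen in 0.292% of T and NK cells and in 38.2% of myeloid cells, at medians of 4751 and 6978 UMIs. With the antibody the levels were 86.8 CPM in dendritic cells (74.0 to 101), 59.7 CPM in myeloid cells (52.1 to 68.0) and 42.2 CPM in B cells (26.4 to 63.8). Cd40 was the ligand with a ratio below 0, interval included, in both myeloid and dendritic cells. The log2 ratio was -0.49 in myeloid cells (-0.71 to -0.28) and -0.39 in dendritic cells (-0.68 to -0.11), both within 1.5-fold. The dendritic ratio shrank to -0.07 with doubled gate thresholds. By sub-class, it was -0.05 (-0.48 to 0.37) in conventional dendritic cells, 144 and 101 in number. In mature dendritic cells it was -0.46 (-0.97 to 0.03). Dendritic cells outside every sub-class gate, 17 and 8 in number, held 36 and 5 Cd40 UMIs.

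Nectin2 encodes CD112 and Pvr encodes CD155, nectin-like ligands of TIGIT, CD226 and, for CD155, CD96. They are on chromosome 7 (chr7:19716644-19750483 and chr7:19903578-19921160, both minus strand). Nectin2 had a pattern unlike that of the B7 ligands. With control IgG it was at 90.8 CPM in stromal cells (81.9 to 100), 46.2 CPM in cancer-like cells (43.2 to 49.4), 13.4 CPM in myeloid cells (11.4 to 15.6) and 7.31 CPM in dendritic cells (4.33 to 11.6). B cells held 0 UMIs, which at the same limit of 3 counts allows up to 3.05 CPM, and T and NK cells 0.518 CPM, below the free RNA at 11.3 CPM. The antibody library held 60.5 CPM in stromal (53.0 to 68.9), 32.7 CPM in cancer-like (30.2 to 35.3), 7.69 CPM in myeloid and 11.8 CPM in dendritic cells (7.39 to 17.8), with free RNA at 15.8 CPM.

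Nectin2 was thus lower with the antibody in the stromal, cancer-like and myeloid classes, and these intervals did not overlap between libraries. The log2 ratio was -0.59 in stromal cells (-0.83 to -0.35; 382 and 231 UMIs), -0.80 in myeloid cells (-1.42 to -0.22; 164 and 29 UMIs) and -0.50 in cancer-like cells (-0.65 to -0.35; 889 and 650 UMIs). The stromal and myeloid ratios passed 1.5-fold as the cells were found. With the mix of sub-classes held at that of control IgG they were -0.37 and -0.39 and no longer passed it. Dendritic cells had 0.69 on 18 and 22 UMIs (-0.28 to 1.67), with 6 of the 22 in 1 cell. Of these UMIs, 1 and 7 lay in the 17 and 8 dendritic cells outside every sub-class gate.

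Pvr was more even, at 35.3 CPM in dendritic cells (28.3 to 43.6), 32.3 CPM in myeloid cells (29.2 to 35.6), 17.7 CPM in cancer-like cells (15.8 to 19.7) and 17.6 CPM in stromal cells (13.8 to 22.1) with control IgG. The first pair and the second pair each overlapped. Values with the antibody were 38.0, 32.9, 20.7 and 22.0 CPM in the same order. In cancer-like cells the log2 ratio was 0.23 (0.02 to 0.44), opposite in sign to Nectin2, and in stromal cells 0.32 (-0.14 to 0.79). Free RNA held 5.89 CPM with control IgG and 12.8 CPM with the antibody.

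Galectin-9 (Lgals9, chr11:78962974-78984946, minus strand) is a secreted lectin that binds TIM-3, and VISTA (Vsir, chr10:60346851-60372684, plus strand) is an inhibitory B7-like protein of myeloid and T cells. Lgals9 was at 101 CPM in myeloid cells (95.9 to 107), 81.5 CPM in stromal cells (73.1 to 90.6), 68.3 CPM in T and NK cells (65.6 to 71.1), about 30 CPM in B and dendritic cells (30.5 and 29.6) and 16.7 CPM in cancer-like cells with control IgG. Its ratio was 0.02 in myeloid cells (-0.15 to 0.18) and -0.08 in stromal cells (-0.31 to 0.15). In cancer-like cells it was 0.33 (0.11 to 0.54), and 0.00 without cells that held a UMI of the division genes Mki67 or Top2a. Vsir was at 157 CPM in myeloid cells (150 to 164), 69.3 CPM in T and NK cells (66.6 to 72.2) and 43.9 CPM in dendritic cells (36.0 to 53.0), with 1.77 CPM in cancer-like cells (1.22 to 2.47). With the antibody myeloid Vsir was 164 CPM (151 to 178), a ratio of 0.07 (-0.07 to 0.20).

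**Figure D2:**
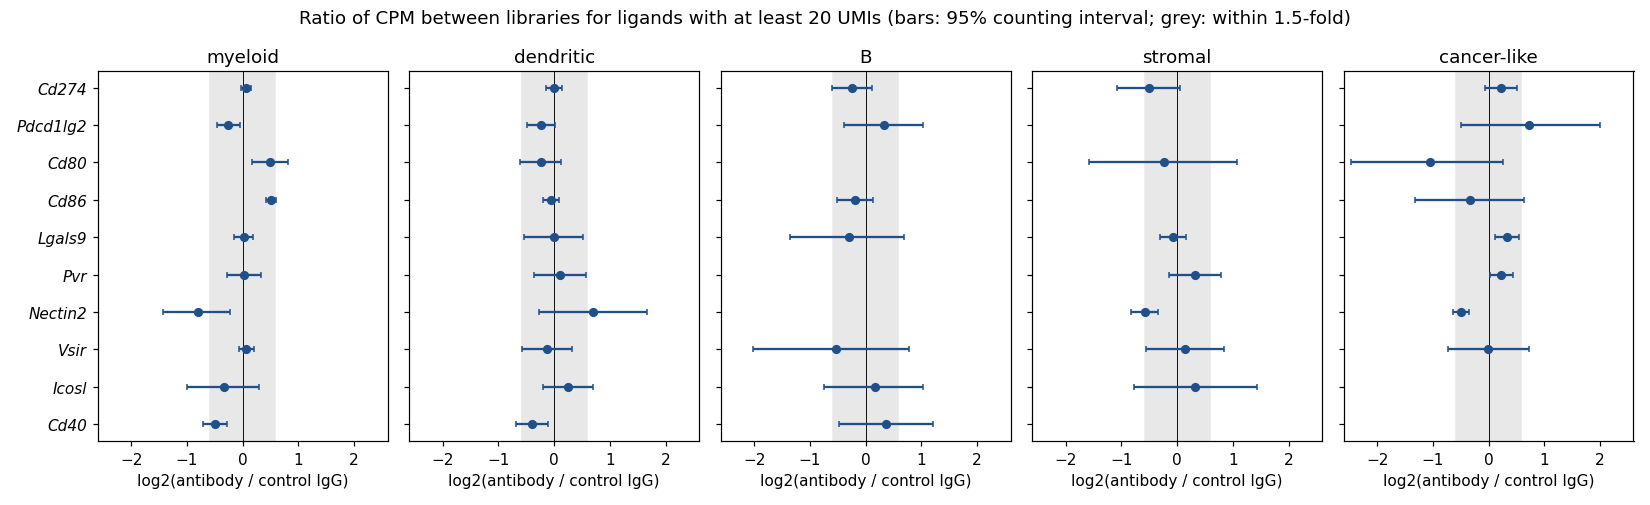
Log2 ratio of CPM, antibody over control IgG, for ligands with at least 20 UMIs in a class; bars are 95% counting intervals and the grey band is 1.5-fold either way. Of 42 points, 37 lie within the band, and the points outside it whose intervals leave out 0 are Nectin2 in myeloid and stromal cells.

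Over 10 ligands and 5 classes, 42 of 50 pairs had at least 20 UMIs. Of these, 37 were within 1.5-fold, 3 were lower and 2 were higher with the antibody. In myeloid cells 1 of 10 ligands was lower and 0 higher, where 8.10% of all 12009 genes tested were lower and 10.5% higher by the same rule. Dendritic cells had 0 of 10 lower and 1 higher (7.81% and 9.21% of all genes), B cells 0 of 7 either way (10.3% and 13.6%), stromal cells 1 of 7 lower and 0 higher (6.87% and 9.36%), and cancer-like cells 1 of 8 lower and 1 higher (8.28% and 4.77%), these being Cd80 and Pdcd1lg2, the latter with a ratio of 0.72 (-0.49 to 2.01). T and NK cells had 2 of 10 lower and 0 higher (5.33% and 4.97%), Nectin2 on 18 and 6 UMIs and Cd40 on 23 and 8, all at levels below those of free RNA. The median log2 ratio of the ligands was 0.02 in myeloid cells against 0.03 over all genes, -0.03 against 0.01 in dendritic cells, -0.19 against 0.09 in B cells, -0.08 against 0.03 in stromal cells and 0.11 against -0.05 in cancer-like cells.

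Sub-classes divided the ligands further. Mature dendritic cells, which carry Ccr7, Fscn1 and Ccl22, had the highest Cd274, Pdcd1lg2, Cd80 and Cd40 of the 9 sub-classes plotted. Their 50 cells with control IgG held 950 CPM of Cd274, 290 of Pdcd1lg2, 140 of Cd80 and 224 of Cd40, and the 41 cells of the antibody library held 985, 249, 136 and 162 CPM. Lgals9 and Vsir were low there, at 2 UMIs each with control IgG. Dendritic cells outside every sub-class gate, 17 and 8 in number, were not plotted and held 244 and 41.2 CPM of Cd40, on 36 and 5 UMIs. In conventional dendritic cells (144 and 101 cells) Cd274 was 308 CPM with control IgG and 376 CPM with the antibody, a log2 ratio of 0.29 (0.07 to 0.51), and Cd86 was 410 and 478 CPM, with 0.22 (0.03 to 0.41).

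The myeloid class held other shares of its sub-classes in the libraries. C1q macrophages made up 69.7% of it with control IgG and 49.4% with the antibody, and monocyte-like cells 23.5% and 39.9%. Within each, Cd274 was higher with the antibody. It was 321 and 365 CPM in C1q macrophages (log2 ratio 0.18, 0.06 to 0.31) and 278 and 336 CPM in monocyte-like cells (0.27, 0.10 to 0.44). Cd86 was 227 and 283 CPM in C1q macrophages (0.32, 0.18 to 0.46) and 327 and 491 CPM in monocyte-like cells (0.59, 0.43 to 0.74). Monocyte-like cells also had 22.4 and 41.3 CPM of Cd80 (0.89, 0.32 to 1.45), 83.3 and 60.1 CPM of Cd40 (-0.47, -0.86 to -0.09) and 27 and 3 UMIs of Nectin2 (-2.28, -4.65 to -0.58). C1q macrophages, with 135 and 23 UMIs of Nectin2, had a ratio of -0.23 (-0.93 to 0.42), and for Cd40 also -0.23 (-0.51 to 0.04), on 83.9 and 71.3 CPM. Pdcd1lg2 stood apart between these sub-classes, at 88.4 CPM in C1q macrophages and 37.4 CPM in monocyte-like cells with control IgG, and 96.5 and 38.3 CPM with the antibody. The interval of its ratio included 0 in both.

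Stromal Nectin2 lay mainly in mesothelial-like cells and myofibroblasts. With control IgG it was 135 CPM in 44 mesothelial-like cells, 118 CPM in 41 myofibroblasts and 39.3 CPM in 139 other fibroblasts, and with the antibody 103 CPM in 34, 86.4 CPM in 17 and 34.7 CPM in 198 cells. In other fibroblasts, where both libraries had over 50 cells, the log2 ratio of Nectin2 was -0.18 (-0.66 to 0.31). Cd274 in these cells was at 19.1 CPM with control IgG (33 UMIs) and 8.79 CPM with the antibody (20 UMIs), a ratio of -1.12 (-2.00 to -0.27). Among the 4 sub-classes with at least 50 cells in both libraries it was the 1 Cd274 ratio past 1.5-fold. The share of all genes past this fold was computed for classes and not for sub-classes, so the call has no background. In the whole stromal class 6.87% of all genes were lower. Both Cd274 levels in other fibroblasts were below those of free RNA, at 48.6 and 63.1 CPM, which are no floor for cells. Skeletal muscle markers, used in no gate, were at 16.2 and 18.3 CPM in the stromal class, against 1476 and 1394 CPM in free RNA. The part of free RNA in stromal Cd274 was not settled. Summed myeloid markers in the whole stromal class were 127 CPM with control IgG and 47.4 CPM with the antibody, and their part in the Cd274 ratio was not tested. Cd274 was 6.40 and 14.0 CPM in myofibroblasts, on 8 and 6 UMIs, and 22.8 and 16.2 CPM in mesothelial-like cells, on 28 and 18 UMIs. Lgals9 was higher in other fibroblasts (102 and 91.9 CPM) than in mesothelial-like cells (69.4 and 58.4 CPM).

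**Figure D3:**
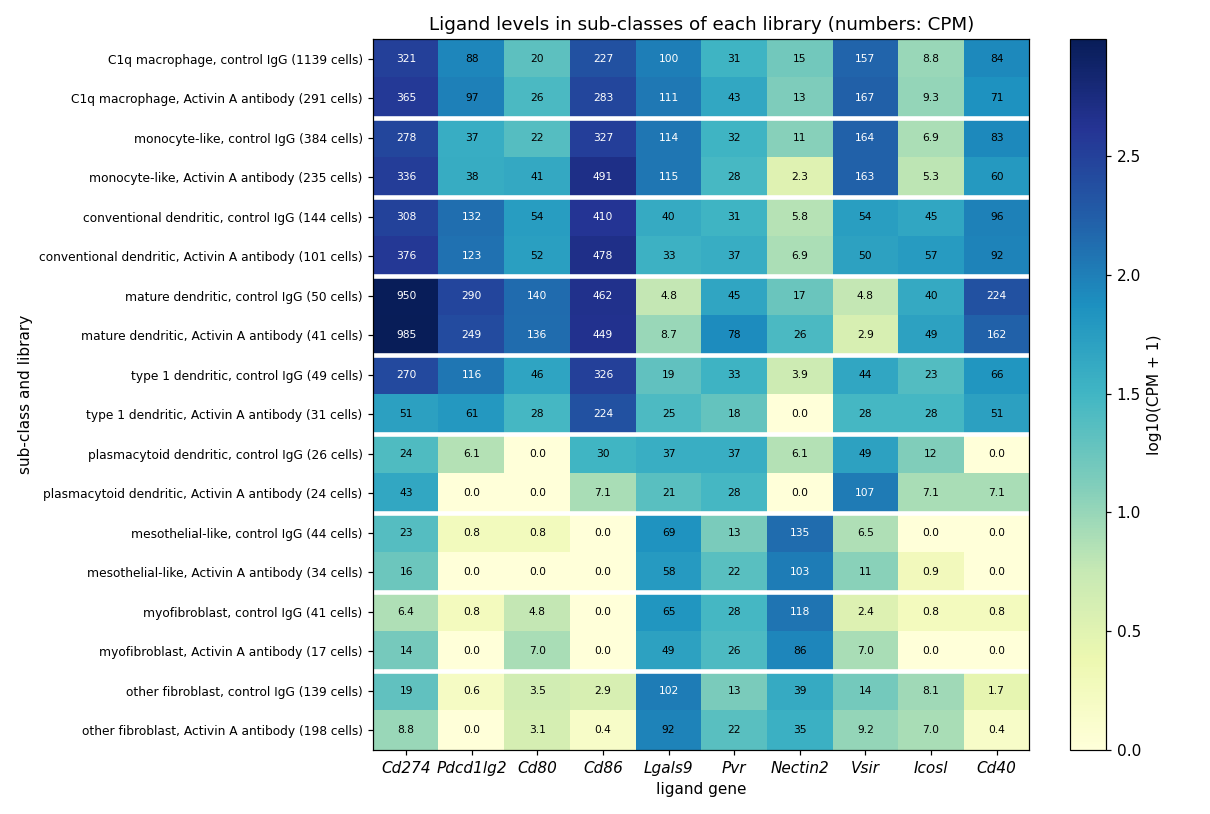
Level of each ligand in 9 sub-classes of each library, with the CPM printed in each field and color on a log10(CPM + 1) scale. Mature dendritic cells reach 950 and 985 CPM of Cd274, while Nectin2 is highest in mesothelial-like cells, at 135 and 103 CPM.

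Where the transcripts of a ligand lay also depended on how many cells of a class each library held. Myeloid cells held 43.9% of all Cd274 UMIs in kept cells with control IgG (42.9% to 45.0%) and 25.7% with the antibody, and T and NK cells 28.1% and 41.1%. For Cd40 the myeloid share was 64.3% and 43.5%, and for Cd86 48.6% and 37.6%. Cancer-like cells held 54.3% and 65.9% of Nectin2 and 25.4% and 40.1% of Pvr. Per 10000 kept cells there were 10026 and 7546 UMIs of Cd274, 7198 and 5587 of Cd86, and 1820 and 810 of Cd40.

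**Figure D4:**
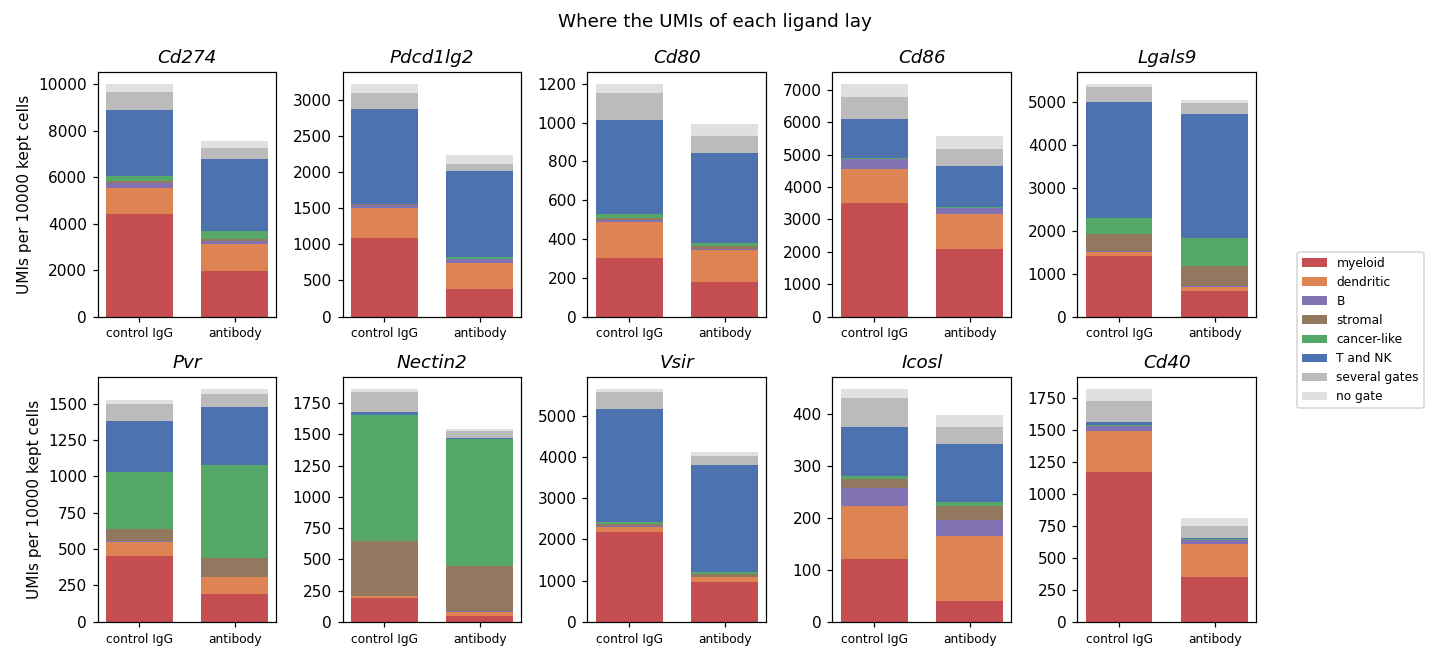
UMIs of each ligand per 10000 kept cells, stacked by the class that held them, for both libraries. Cd274 goes from 10026 with control IgG to 7546 with the antibody and Cd40 from 1820 to 810, with a smaller myeloid part in each.

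Over all kept cells Cd40 was at 19.9 CPM with control IgG (1596 UMIs) and 9.0 CPM with the antibody (517 UMIs), a log2 ratio of -1.14. It was the single ligand past 1.5-fold there, where 7.87% of all genes were lower and 8.18% higher. With the classes weighted as in the control IgG library its ratio was -0.47. Cd274 over all cells had 110 and 83.9 CPM and a ratio of -0.39 (-0.44 to -0.33), which became 0.05 at the control weights. Cd86 likewise went from -0.34 to 0.27. For Nectin2 the weights worked the other way, from -0.25 to -0.58.

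Each ligand was also compared with other genes by Pearson's r of log2(CPM + 10). Each r was taken over 15 points, the pairs of cell group and library with at least 50 cells. The genes most like a ligand were picked from 12886 genes with at least 200 UMIs, so high values are easily found. B, cancer-like and T and NK cells entered as whole classes, the others as sub-classes. Mature dendritic cells entered from control IgG alone. Mesothelial-like cells and myofibroblasts, the sub-classes highest in Nectin2, had too few cells to enter. The points of a library share its handling and free RNA, so these values are descriptions. Cd274 was most like Ncf1 (0.98), Cd86 (0.97) and Uvrag (0.97). Cd40 was most like Nuak2 (0.99), Uvrag and Ifi30 (0.98 each), and Vsir like Slc43a2 (0.98), Entpd1 and Cln3 (0.96 each). Among the ligands, Cd274 went with Pdcd1lg2 (0.95) and Cd40 (0.93), and against Nectin2 (-0.58). Lgals9 had its closest ligand in Vsir (0.74).

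The receptors of these ligands were read in T and NK cells, and 0 of 10 were past 1.5-fold, beside 5.33% lower and 4.97% higher over all genes, with a median log2 ratio of 0.12 against 0.02 over all genes. Cd226, the activating receptor of CD112 and CD155, was at 460 CPM with control IgG and 442 CPM with the antibody, a ratio of -0.06 (-0.09 to -0.02). Havcr2, which encodes TIM-3 and is not among the 4 receptors with most UMIs, was at 51.3 and 47.2 CPM (-0.12, -0.23 to -0.01). Ctla4 was at 271 and 312 CPM, Cd28 at 234 and 284 CPM, and Icos at 205 and 244 CPM, each with an interval of the ratio above 0. Of 16 other ligands of T and NK cells, 11 had enough UMIs in myeloid cells, and 3 were higher (Tnfsf9, Cd200, Ceacam1) and 1 lower (Nectin1). Tnfsf9, the ligand of 4-1BB, was 49.7 and 76.6 CPM there (0.63, 0.42 to 0.83). Cd47, the signal against phagocytosis, was 403 and 399 CPM (-0.02, -0.10 to 0.07), Cd48, a ligand of CD244, 119 and 98.9 CPM, and the adhesion ligand Icam1 98.5 and 94.2 CPM. In dendritic cells 1 of 8 was higher (Icam2) and 0 lower, in B cells 1 of 5 higher (Icam2) and 1 lower (Cd200), in stromal cells 1 of 9 higher (Tnfsf9) and 1 lower (Cd48), and in cancer-like cells 1 of 11 higher (Vtcn1) and 2 lower (Cd48, Cd200). These counts stand beside 8.10% lower and 10.5% higher over all genes in myeloid cells, 7.81% and 9.21% in dendritic, 10.3% and 13.6% in B, 6.87% and 9.36% in stromal and 8.28% and 4.77% in cancer-like cells. Some of the genes in brackets had an interval of the ratio that included 0. These were Nectin1 in myeloid cells, Cd200 in B cells, and Vtcn1 and Cd200 in cancer-like cells. The cancer-like ratios rested on 6 and 14 UMIs of Vtcn1 and 13 and 7 of Cd200, and the myeloid ratio of Cd200 on 9 and 19. Icam2 had 7 and 22 UMIs in dendritic cells and 18 and 20 in B cells. Summed endothelial markers were 61.7 and 178 CPM in dendritic cells and 162 and 222 CPM in B cells, and their part in the Icam2 ratios was not tested. Cd48 is a gene of leukocytes. Summed myeloid markers were 127 and 47.4 CPM in stromal and 66.9 and 25.6 CPM in cancer-like cells, T and NK markers 70.6 and 38.5 CPM in stromal and 62.1 and 46.7 CPM in cancer-like cells, and their part in its ratios was not tested. The genes in brackets were named after their values were seen.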

How the data were processed

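The authors deposited UMI counts of each gene in each barcode for 1 control IgG and 1 Activin A neutralizing antibody library, unfiltered and not normalized. The submitters' processing notes name Cell Ranger 7.0.1 and mm10, while the file headers name Cell Ranger 4; labels and methods also differ on the chemistry. Cells were kept by the study's limits. Classes came from summed marker UMIs per 10000, with thresholds set after marker counts were seen and without the ligands. Summed counts gave CPM. No test between groups was made. Scrublet called 0 doublets and was taken not to have worked, so no cell was removed by it. Cells that passed several gates, which can include doublets, were left out of the classes. Thinning drew 2000 UMIs per cell without replacement. The ratio code was tested on simulated data. Positions came from GENCODE M21. All 10 ligands were described in the 5 classes. Of each list, up to 4 genes with most UMIs could be named, and of genes alike in level the first 3. The values of 1 listed gene are not reported here. Members and lists were chosen with earlier results of these data known. Python 3.11.15, scanpy 1.11.5, leidenalg 0.10.2 and scipy 1.17.1 were used.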

Additional observations from a re-analysis of the deposited data

How the results depend on the processing

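No paired analysis was possible because a group is a single library and the labels carry no shared replicate numbers. For the same reason no replicate could be left out. Of the 42 log2 ratios, 2 that were past 1.5-fold turned sign, both without cells holding a UMI of Mki67 or Top2a: Nectin2 in dendritic cells went to -0.29 and Cd80 in cancer-like cells to 0.60. Many ratios within 1.5-fold were not stable in sign over the alternatives. Examples are Pdcd1lg2 in myeloid cells (-0.40 to 0.08), Vsir in B cells (-1.16 to 0.09) and Icosl in stromal cells (-0.18 to 0.71). The causes below were not tested.

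In the myeloid, dendritic, B, stromal and cancer-like classes the counts of ligands past 1.5-fold are 0 to 1 in each direction, so 1 ligand moves them. With the sub-class mix of control IgG, 0 were lower in myeloid and 0 in stromal cells. In Leiden clusters, 0 were higher in dendritic cells, and 2 were lower in B and 2 in stromal cells. With doubled gate thresholds 0 were higher in dendritic, 1 lower in B, and 2 lower and 0 higher in cancer-like cells. With cells of several gates placed in the larger, 1 was lower in B, and 2 lower and 0 higher in cancer-like cells. With the mean of CPM per cell, 0 were higher in dendritic, and 1, 2 and 2 lower in B, stromal and cancer-like cells. A mitochondrial limit of 5% gave 1 lower and 1 higher in B cells, and re-centring on the median gene 1 lower. With no minimum of UMIs, 1, 3 and 2 were lower in B, stromal and cancer-like cells. At 50 UMIs, 0 were higher in dendritic and 0 lower or higher in cancer-like cells.

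Alternatives chosen after the data were seen were these. Without dividing cells, 1 was higher in myeloid and 0 in dendritic cells, 1 lower in B, 2 lower in stromal, and 0 lower or higher in cancer-like cells. With free RNA subtracted by cancer transcripts, 1 was lower in B and 2 higher in stromal cells. That setting took 39.9% of stromal UMIs with control IgG and 26.9% with the antibody as free RNA, against 0% and 0.349% by haemoglobin. The most cancer transcript UMIs in a stromal cell were 104 and 110. Stromal cells held T and NK markers at 70.6 and 38.5 CPM, against 1961 and 2052 CPM in free RNA. Skeletal muscle markers were at 16.2 and 18.3 CPM, against 1476 and 1394 CPM. Shares of 39.9% and 26.9% would bring more of these, so the stromal share was too high. The 2 higher ligands under this setting are not read as a result. Without shared barcodes no count of ligands moved, nor did one in the planned removal of the highest Scrublet scores. Since Scrublet was taken not to have worked, that removal cannot show how doublets bear on the counts. Free RNA by skeletal muscle transcripts was tried first and set aside, since few cells held them. Free RNA by haemoglobin gave no value in myeloid and B cells, where 1 cell held 725 of 735 and 6 of 6 haemoglobin UMIs of the antibody library. As barcodes under 50 UMIs, free RNA held 64.2 and 63.1 CPM of Cd274. Thinned to 1000 UMIs, 23.9% of myeloid cells had a Cd274 UMI with control IgG.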

Other observations

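The genes of the interferon gamma response were read beside the ligands, since several of the ligands are known to respond to it. In myeloid cells 1 of 9 with enough UMIs was lower and 1 higher with the antibody, beside 8.10% and 10.5% of all genes. Cxcl9, a chemokine that draws T cells, was at 454 CPM with control IgG and 228 CPM with the antibody (log2 ratio -0.99, -1.10 to -0.89), and Socs1, a brake on cytokine signaling, at 64.1 and 108 CPM (0.75, 0.58 to 0.93). Irf1 and Gbp2 were within 1.5-fold, at 333 and 337 CPM and at 382 and 393 CPM. In stromal cells 2 of 8 were lower and 0 higher (6.87% and 9.36% of all genes), where Cxcl9 was 468 and 158 CPM (-1.57, -1.70 to -1.44) and Gbp4, a guanylate-binding protein, 28.5 and 15.2 CPM. In cancer-like cells 2 of 9 were lower and 1 higher (8.28% and 4.77%), and Cxcl10 was 73.2 and 162 CPM (1.15, 1.06 to 1.24), while Cxcl9 was 9.10 and 4.93 CPM and Ciita, the activator of MHC class II genes, was also lower on 30 and 20 UMIs. Dendritic cells had 0 of 9 past the fold (7.81% lower and 9.21% higher over all genes), and B cells 1 of 7 higher (Irf8) and 1 lower (Gbp4), beside 13.6% and 10.3%. Socs1, Gbp4, Ciita, Irf8 and the cancer-like Cxcl9 are named because they passed the fold. The intervals of Ciita in cancer-like cells (-1.53 to 0.23) and Gbp4 in B cells (-2.13 to 0.23) included 0.

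Small sub-classes, chosen after their values were seen, held the largest Cd274 ratios. Type 1 dendritic cells, which carry Xcr1 or Clec9a, had 140 UMIs in 49 cells with control IgG (270 CPM) and 20 UMIs in 31 cells with the antibody (51.0 CPM). A single control IgG cell held 34 of these UMIs, and 6 cells with at least 3 mature dendritic markers held 51, against 1 such cell with 1 UMI in the antibody library. Without them the levels were 202 CPM (163 to 249) and 49.5 CPM (29.8 to 77.3). The division gene Mki67 was at 22.7 CPM with control IgG and 120 CPM with the antibody in these remaining cells, and its part in the Cd274 levels was not tested. Neutrophil-lineage cells had 24 UMIs in 17 cells (466 CPM) and 33 in 26 cells (91.7 CPM). Camp, a granule gene of immature neutrophils, was at 892 and 13388 CPM in them, and the receptor gene Cxcr2, of mature ones, at 582 and 77.8 CPM. The part of that difference in the Cd274 values was not tested.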
